A study of Homo sapiens with 6 samples.

Results

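The 9 genes described here are the kinases JAK1, JAK2 and TYK2, the transcription factors STAT3, STAT5A and STAT5B, and the feedback inhibitors SOCS1, SOCS3 and CISH. They were taken by symbol, with no threshold on their values, from the 26485 gene rows of an RNA-seq count table. The table came from THP1, an established human line of acute monocytic leukemia, whose cells were exposed for 6 h either to Withaferin A (WFA), a steroidal lactone, or to its solvent DMSO. All 6 libraries came from the same line and carried no further treatment, and 3 independent experiments gave 3 DMSO and 3 WFA libraries. The labels give the WFA dose as 1 mM, whereas the methods of the study give the same number with the unit μM. The libraries were made to find out how a short exposure to WFA changes gene expression in acute myeloid leukemia (AML) cells.

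Cytokine receptors of this class have no kinase domain of their own and rely on JAK kinases bound to their intracellular tails. Ligand binding brings the JAKs together, the JAKs phosphorylate the receptor and the STAT factors that dock on it, and paired STATs enter the nucleus and bind DNA. Among the genes that STATs switch on are SOCS1, SOCS3 and CISH, whose proteins bind the receptor or the JAKs and close a negative feedback loop. In myeloid cells the pathway carries signals of interleukins, interferons and colony-stimulating factors, and activating mutations of JAK2 occur in myeloid neoplasms. The libraries measured RNA only, and phosphorylation, the step by which JAKs and STATs are switched on, was not measured.

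Library totals lay between 11006035 and 13872810 counts, and 12854 genes had enough counts for testing. Levels are given as CPM, a gene's count per 1000000 reads of the TMM-scaled library size. Of 16 monocytic marker genes, 14 passed that filter. LYZ, a lysozyme gene typical of myelomonocytic cells, had between 1381 and 2090 CPM, while the granule protein gene ELANE had no count and AZU1 at most 4 counts in a library. In this list 1 gene, CD68, was called higher and 6 lower with WFA, CD14 and CD33 among the lower ones. The other 7 tested genes of the list, LYZ, ITGAM and FCGR1A among them, were not called. Among all tested genes, 25.8% were called higher and 24.7% lower. The summed level of the list was 3834 to 4637 CPM with DMSO and 3494 to 4605 CPM with WFA. Of 20 markers of other cell types, 8 had no count and 13 had at most 3 counts in every library. Their summed level was 8.92 to 11.9 CPM with DMSO and 17.8 to 27.5 CPM with WFA, and COL1A1, a fibroblast collagen gene, went from 3, 4 and 10 counts to 107, 106 and 135. Whether these marker genes have a part in the results below was not tested. In RNA from a whole culture, fewer cells that express a gene and less RNA of that gene per cell cannot be told apart.

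Genes are compared with each other as CPM per kb of annotated exon. Per kb, JAK1 and STAT3 were the most abundant of the 9 genes with DMSO, at 33.9 ± 1.599 and 32.1 ± 1.96 CPM per kb (SD, n = 3), and their ranges overlapped. TYK2 had 19.4 ± 0.250, JAK2 17.5 ± 0.545 and STAT5B 14.1 ± 0.226 CPM per kb, with no overlap between neighbours in this order. CISH and STAT5A, at 3.28 ± 0.542 and 3.16 ± 0.353 CPM per kb, overlapped. SOCS3 had 0.834 ± 0.268 and SOCS1 0.157 ± 0.0184 CPM per kb, so the 3 inhibitors covered a wide range of levels. With WFA, JAK1 and STAT3 again had the highest means and SOCS3 and SOCS1 the lowest. JAK1, at 34.4 to 36.6 CPM per kb, no longer overlapped STAT3, at 25.2 to 29.8. SOCS3, which lay below CISH without overlap with DMSO, overlapped it with WFA, at 3.23 to 4.05 against 3.34 to 4.85. The mean of STAT5A was now above that of CISH, at 4.59 ± 0.411 against 4.27 ± 0.816 CPM per kb, and their ranges overlapped. STAT5B, at 18.6 ± 0.620 CPM per kb, then had a higher mean than TYK2 at 18.0 ± 2.07 and JAK2 at 10.6 ± 0.867, and its libraries overlapped those of TYK2.

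Of the 9 genes, 8 had enough counts for the test. SOCS3, STAT5A and STAT5B were higher and JAK2 was lower with WFA, while JAK1, TYK2, STAT3 and CISH did not pass the threshold. These 4 calls among 8 tested genes stand beside 50.5% of all tested genes called in either direction, 25.8% higher and 24.7% lower, so the share of calls in the family was close to that of all tested genes. The median log2 fold change of the 8 genes was 0.22, and that of all tested genes was 0.02. With the replicate number as a block, 4 members were called higher and 2 lower, since STAT3 and CISH passed the threshold, beside 59.0% of all tested genes. With total counts in place of TMM, 3 members were called higher and 2 lower, beside 51.6% of all tested genes, 21.5% higher and 30.1% lower. SOCS3 was the only member that changed over 2-fold, which 8.11% of all tested genes did upward and 5.2% downward. The CPM values of DMSO and WFA did not overlap for 5 of the 8 tested members, against 58.1% of all tested genes, 29.6% with higher and 28.5% with lower values with WFA.

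**Figure D1:**
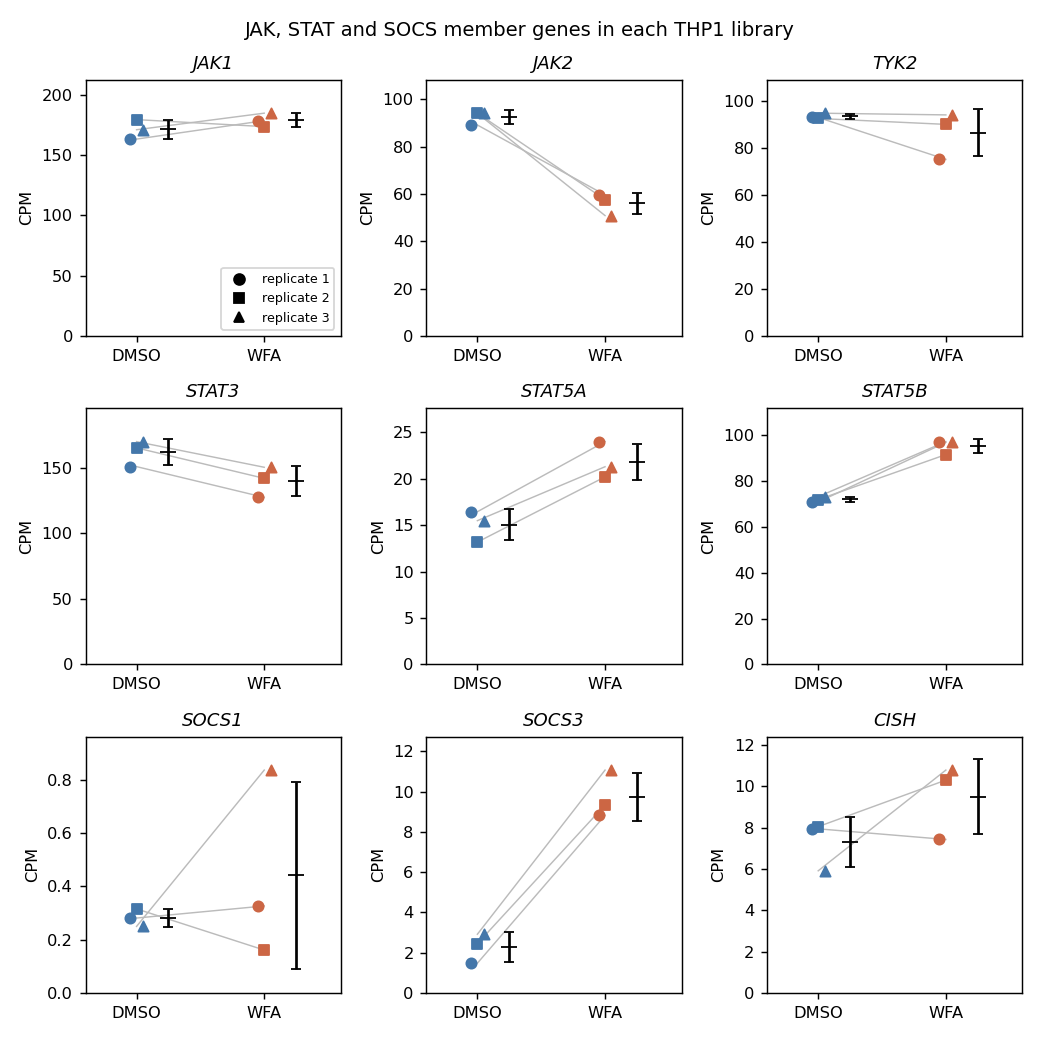
CPM (vertical axes, linear, from 0) of the 9 genes in each DMSO (blue) and WFA (orange) library, with marker shapes for replicates 1 to 3, grey lines joining libraries of the same number, and the mean ± SD (n = 3) in black. JAK2 lay lower and STAT5A, STAT5B and SOCS3 lay higher in all 3 WFA libraries than in any DMSO library. The groups of STAT3 did not overlap either, by a narrow margin, while those of JAK1, TYK2, SOCS1 and CISH overlapped.

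Among the kinases, JAK2 fell while JAK1 and TYK2 did not pass the threshold. JAK2 (chr9:4984390-5128183, plus strand, positions here and below from GENCODE 29 on GRCh38) serves the receptors for erythropoietin, thrombopoietin and the colony-stimulating factor GM-CSF. It had 89.2, 94.2 and 94.2 CPM with DMSO and 59.6, 57.7 and 50.9 CPM with WFA. Each WFA library was thus well below each DMSO library. The log2 fold change was -0.72 (SE 0.09, 95% interval -0.91 to -0.53), with an adjusted p of 9.92e-06 in edgeR's quasi-likelihood test. All 16 alternative fits called JAK2 lower.

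JAK1 (chr1:64833229-64966504, minus strand) pairs with the interferon receptors and with gp130, the shared subunit of the IL-6 family. It had 163, 179 and 171 CPM with DMSO and 178, 173 and 185 CPM with WFA, and the groups overlapped. Its log2 fold change was 0.06 (SE 0.08, 95% interval -0.11 to 0.24, adjusted p = 0.542), and the sign turned, to -0.0208, when libraries were scaled by their total counts. TYK2 (chr19:10350529-10380676, minus strand), which serves the receptors for type I interferons, IL-12 and IL-23, had 93.0, 92.6 and 94.8 CPM with DMSO. With WFA it had 75.2, 90.04 and 94.1 CPM. WFA replicate 1 was the low library, and the other two WFA libraries reached or approached the DMSO values. The log2 fold change of TYK2 was -0.11 (SE 0.09, 95% interval -0.31 to 0.09, adjusted p = 0.334).

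Counts of 2 genes in the same library can be compared without any scaling between libraries. The ratio of JAK2 to JAK1 reads was 0.541 ± 0.0136 with DMSO and 0.314 ± 0.0333 with WFA (SD, n = 3). It was lower in all 3 WFA libraries than in any DMSO library. TYK2 to JAK1 reads gave 0.547 ± 0.0277 and 0.483 ± 0.0539, with overlapping groups. These ratios, and that of STAT3 to STAT5B below, were chosen after the values of the genes had been seen and are given without a test.

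**Figure D2:**
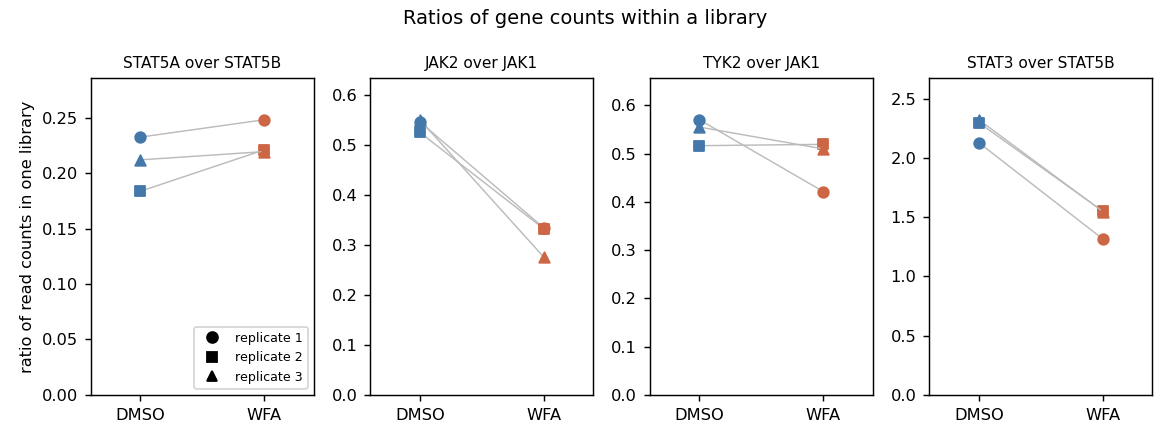
Ratio of the read counts of 2 genes within a library (vertical axes, linear, from 0) with DMSO (blue) and WFA (orange), with marker shapes for replicates 1 to 3 and grey lines joining libraries of the same number. The ratios of JAK2 to JAK1 and of STAT3 to STAT5B were lower in all 3 WFA libraries than in any DMSO library, while those of STAT5A to STAT5B and TYK2 to JAK1 overlapped.

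The STAT factors went in different directions. Both STAT5 genes rose, and STAT3 was lower by an amount that did not pass the threshold. STAT5B (chr17:42199168-42276707, minus strand), a close relative of STAT5A that answers to growth hormone and many cytokines, had 70.8, 71.8 and 73.1 CPM with DMSO and 96.7, 91.4 and 97.1 CPM with WFA. The groups were far apart compared with their own spread. Its log2 fold change was 0.40 (SE 0.08, 95% interval 0.23 to 0.58, adjusted p = 0.000742).

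STAT5A (chr17:42287547-42311943, plus strand), first known as the prolactin-activated factor of the mammary gland, was expressed at a lower level. It had 16.5, 13.2 and 15.5 CPM with DMSO and 24.02, 20.2 and 21.3 CPM with WFA. Again the lowest WFA library was above the highest DMSO library. The log2 fold change was 0.54 (SE 0.13, 95% interval 0.26 to 0.81, adjusted p = 0.00305). All 16 alternative fits called STAT5A and STAT5B higher.

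STAT3 (chr17:42313324-42388568, minus strand), the main factor downstream of IL-6 and IL-10, had 151, 165 and 169.7 CPM with DMSO and 127, 142 and 150.2 CPM with WFA. The groups did not overlap, but the highest WFA library and the lowest DMSO library almost met. In each experiment the WFA library was lower than its DMSO partner. The log2 fold change was -0.21 (SE 0.09, 95% interval -0.40 to -0.02) with an adjusted p of 0.0632. With the replicate block it was -0.21 with an adjusted p of 0.0159, and without WFA replicate 3 it was -0.26 with an adjusted p of 0.0370. Of the 16 alternative fits, 4 called STAT3 lower, and its adjusted p ran from 0.0152 to 0.213.

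STAT5B, STAT5A and STAT3 lie next to each other on chromosome 17. STAT5B and STAT5A point away from each other across a gap of 10.839 kb, and the ends of STAT5A and STAT3 face each other across 1.38 kb. Within this stretch the STAT5 genes and STAT3 had opposite signs of change. The ratio of STAT3 to STAT5B reads was 2.25 ± 0.105 with DMSO and 1.47 ± 0.135 with WFA (SD, n = 3), without overlap.

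STAT5A and STAT5B are closely similar paralogs, and reads that match both could have been split between them or dropped in the counting. STAT5A reads were 18.9%, 15.5% and 17.5% of all STAT5 reads with DMSO and 19.9%, 18.1% and 18.0% with WFA. The groups overlapped, and 95% Wilson intervals, which cover counting error only, ran from 13.5% to 17.8% in the lowest and from 17.9% to 22.004% in the highest library. The mean share went from 17.3% ± 1.68 to 18.7% ± 1.06 (SD, n = 3), a difference of 1.37 percentage points. A two-sided exact permutation test gave p = 0.4, where the smallest possible value is 0.1. The share was higher with WFA in 3 of 3 experiments, by 1.02, 2.59 and 0.505 percentage points, and the paired exact test gave p = 0.25, the smallest it can give.

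Of the inhibitors, SOCS3 rose the most of all 9 genes, CISH did not pass the threshold and SOCS1 was too low to test. SOCS3 (chr17:78356778-78360077, minus strand) binds gp130 and the JAKs and restrains IL-6 and G-CSF signals. It had 21, 31 and 35 counts with DMSO and 108, 116 and 119 counts with WFA. On the CPM scale these were 1.48, 2.45 and 2.92 against 8.82, 9.34 and 11.1. The groups were separated by a wide gap. The log2 fold change was 2.11 (SE 0.23, 95% interval 1.62 to 2.59), a 4.30-fold rise, with an adjusted p of 2.65e-06. All 16 alternative fits called it higher, and without each library in turn the log2 fold change lay between 1.85 and 2.32.

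CISH (chr3:50606490-50611831, minus strand), a classical STAT5 target that acts on the receptors of erythropoietin and IL-2, had 7.95, 8.05 and 5.92 CPM with DMSO. With WFA it had 7.43, 10.3 and 10.8 CPM. The groups overlapped because WFA replicate 1 was below DMSO replicates 1 and 2. The log2 fold change was 0.37 (SE 0.19, 95% interval -0.02 to 0.77, adjusted p = 0.109). With the replicate block it was 0.36 with an adjusted p of 0.0375, and without WFA replicate 1 it was 0.53 with an adjusted p of 0.0332. These were the only 2 of 16 alternative fits that called CISH, whose adjusted p ran from 0.0332 to 0.330, with 0.238 under DESeq2 with the block. In the annotation 107 exonic bases of CISH, 4.81% of its exon length, are shared with MAPKAPK3 on the opposite strand. How the counting treated strand is not given in the sources used here, so reads from these bases may have come from either gene. SOCS1 (chr16:11254405-11256200, minus strand), an inhibitor of interferon signals, had 4, 4 and 3 counts with DMSO and 4, 2 and 9 counts with WFA. Its summed rate with WFA was 1.498 times that with DMSO, with an exact 95% interval from 0.643 to 3.60 for counting error alone, so no difference was detectable at this depth.

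The stretches before the transcription starts of CISH and SOCS3 are shown because these are the inhibitors that STATs are known to switch on and that had enough counts to test. They come from RefSeq on GRCh38.p14 and are written 5′ to 3′ on the minus strand. In the stretches of CISH, capitals mark the letters of the STAT site GAS, TTCNNNGAA, which reads the same on both strands. In that of SOCS3, capitals mark the heat shock letters TTCNNGAA.
CISH, chr3:50611832-50611907: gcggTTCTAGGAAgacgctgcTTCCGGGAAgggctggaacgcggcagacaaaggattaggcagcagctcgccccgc
CISH, chr3:50611996-50612015: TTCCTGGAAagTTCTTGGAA
SOCS3, chr17:78360926-78361175: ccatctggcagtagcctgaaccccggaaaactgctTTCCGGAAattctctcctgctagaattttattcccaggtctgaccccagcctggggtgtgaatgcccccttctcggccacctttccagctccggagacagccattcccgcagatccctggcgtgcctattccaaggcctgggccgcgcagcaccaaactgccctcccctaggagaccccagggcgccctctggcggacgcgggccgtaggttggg
The 250 bases before the RefSeq start of CISH held 4 such GAS matches, beginning 241, 230, 129 and 112 bases before the start, and the second CISH line lies inside an annotated exon of MAPKAPK3. Of all 35116 promoter windows of this length, 6.57% held at least 1 GAS match and 0.356% held 2 or more. The 9 genes have 17 such windows, and CISH was the only member with a match. SOCS3 had no GAS letters in either of its windows and 1 match to TTCNNGAA, letters that 6.62% of all windows held. Searched on both strands, TTCNNGAA or GAANNTTC stood in windows of 4 members, the former in JAK1, SOCS3 and STAT3 and the latter in CISH. The CISH match, GAAAGTTC, begins 235 bases before the start and is not a separate site. It joins the last letters of the GAS match at 241 to the first letters of that at 230. GAANNTTC was found in 5.78% of all windows. Counted per gene, 8.12% of all genes with windows held TTCNNGAA and 7.05% held GAANNTTC. The share of genes that held either was not counted. The core of the antioxidant response element, TGACNNNGC, stood in a window of JAK1 alone among the members. It stood in 10.9% of all windows and, counted per gene, in 13.2% of all genes with windows. The SOCS3 start in GENCODE 29 lies 848 bases downstream of the RefSeq start used here. The bases directly before that GENCODE start lie outside both SOCS3 windows and were not searched for any of these letters. The SOCS3 window that is not printed, chr17:78359668-78359917, lies within the SOCS3 gene of GENCODE 29. These matches describe letters in the windows and do not show binding.

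A further 9 genes of the 3 families were read in the same fit. Of the 8 among them that could be tested, 3 rose and 5 did not pass the threshold, beside 25.8% higher among all tested genes. STAT2, a factor of the response to type I interferons, went from 49.2, 53.1 and 56.9 CPM to 109.9, 104 and 129 CPM. Its WFA libraries all lay far above its DMSO libraries, with a log2 fold change of 1.11 (SE 0.10, adjusted p = 4.18e-07). STAT6, which acts downstream of IL-4 and IL-13, rose by 0.91 on the log2 scale (SE 0.10, adjusted p = 2.70e-06).

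SOCS2, which restrains growth hormone signals, rose from 1.49 ± 0.143 to 3.05 ± 0.668 CPM (SD, n = 3), a log2 fold change of 1.03 (SE 0.27, adjusted p = 0.00480). STAT4, the factor of IL-12 responses, had a log2 fold change of 0.50 with an adjusted p of 0.0772, and of 0.0471 with the replicate block, the only 1 of 15 alternative fits that called it. SOCS4, SOCS5, SOCS6 and SOCS7 had log2 fold changes of 0.02, -0.06, 0.12 and 0.24 and none was called, and the signs of SOCS4 and SOCS5 turned when single libraries were left out. JAK3, the kinase of the common gamma chain, had at most 4 counts in a library and was not tested.

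**Figure D3:**
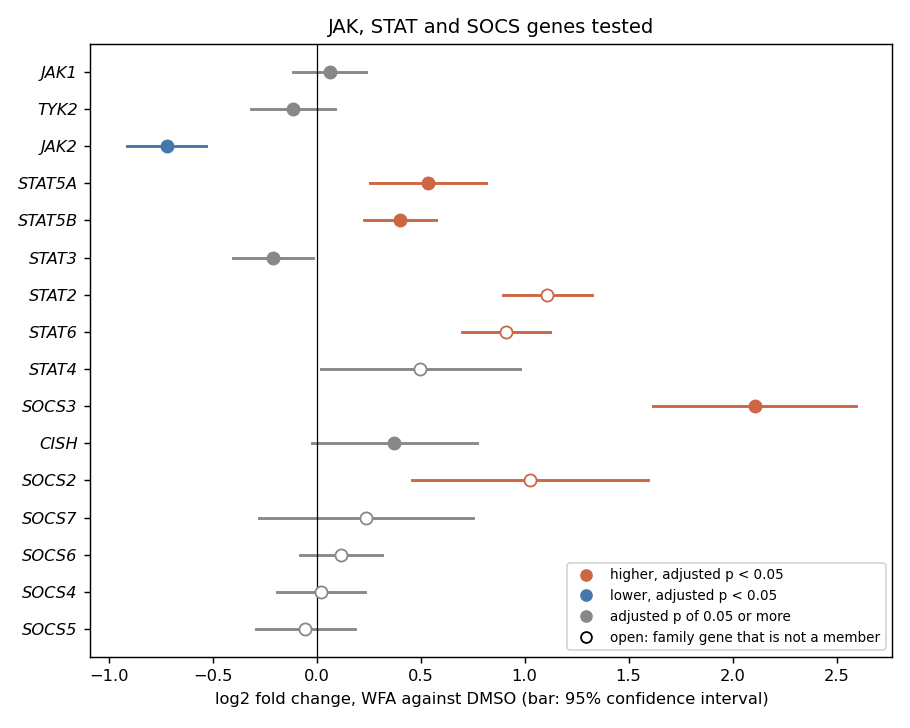
Log2 fold change, WFA against DMSO, of the JAK, STAT and SOCS genes reported here that could be tested (horizontal axis), with 95% intervals of edgeR's quasi-likelihood fit on 3 libraries per group. Orange marks genes called higher, blue lower and grey not called, filled points are the members and open points the other family genes. SOCS3 at 2.11 lies farthest to the right and JAK2 at -0.72 farthest to the left. The intervals of JAK1, TYK2, CISH, SOCS4, SOCS5, SOCS6 and SOCS7 include 0.

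Ligands of the pathway were close to absent from these libraries. Of 19 cytokine genes, 8 had no count in any library, among them IL6 and IFNG, and only IL23A had enough counts for the test, with a log2 fold change of 0.17 (adjusted p = 0.715). CLCF1, a cytokine of the IL-6 family, had 9 counts in all with DMSO and 34 with WFA. OSM, the gene of oncostatin M, which signals through gp130, had 12, 9 and 19 counts with DMSO and 3, 6 and 4 with WFA. The rate ratios were 4.15 for CLCF1 (95% counting interval 1.95 to 9.84) and 0.357 for OSM (0.175 to 0.681), and these intervals compare the pooled libraries only.

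Of 32 receptor genes, 23 were tested, of which 9 rose and 4 fell, beside 25.8% higher and 24.7% lower among all tested genes. The median log2 fold change of the 23 receptor genes was 0.21. IL7R, the IL-7 receptor chain, rose from 3.80, 4.42 and 2.999 CPM to 24.3, 21.1 and 23.9 CPM, a log2 fold change of 2.62 (SE 0.16, adjusted p = 8.14e-09). IL2RB, a chain shared by the receptors of IL-2 and IL-15, rose by 2.13 and IL12RB2, the signaling chain of the IL-12 receptor, by 1.997 on the log2 scale. IL10RA, through which IL-10 engages JAK1 and STAT3, rose by 1.19. IL6R and IL4R, the binding chains for IL-6 and IL-4, fell by 0.70 and 0.72 on the log2 scale. Reads of CSF2RA, IL3RA and CRLF2 were listed at 0 in every library. These 3 genes lie in the pseudoautosomal region of the sex chromosomes, and how reads that match both copies were counted is not given in the sources used here.

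Of 12 tested genes among the other inhibitors of the pathway, 6 fell and 3 rose, beside 24.7% lower and 25.8% higher among all tested genes, with a median log2 fold change of -0.22. PTPN2 and PTPN6, phosphatases that remove phosphate from JAKs and STATs, fell by 0.67 and 0.65 on the log2 scale. PIAS3 and PIAS2, of the family of STAT-binding SUMO ligases, rose by 0.68 and 0.40. Of 12 coregulators and adaptors, 6 rose and 3 fell, beside the same shares of all tested genes, with a median of 0.40. IRF9, which binds STAT2 in the interferon response, rose by 0.88 and SOS1, which activates RAS, by 0.81. GRB2, the adaptor that recruits SOS1, fell by 0.83 and NMI, a STAT interactor, by 0.34.

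Genes known as targets of STAT3 and STAT5 and interferon-induced genes moved in both directions. Of 26 tested targets of STAT3 and STAT5, 13 rose and 7 fell, beside 25.8% higher and 24.7% lower among all tested genes. The median log2 fold change of these targets was 0.28. BCL6, a transcriptional repressor, rose by 1.75, PIM1, a survival kinase, by 1.30 and FURIN, a protease, by 0.89 on the log2 scale. MYC, the proliferation factor, fell by 2.21 and CCND1, the gene of cyclin D1, by 0.80. Of 21 tested interferon-induced genes, 5 rose and 9 fell, beside the same shares of all tested genes, with a median of -0.52. IRF8, a factor of monocytic differentiation, fell by 2.24, and GBP4, OAS1, MX1 and OAS3, genes of the antiviral response, fell by 1.36, 1.31, 1.17 and 1.11. BST2, which tethers budding virus, rose by 1.89 against the direction of this list's median. IRF9, named above among the coregulators, is counted in this list too and rose by 0.88. Many of these genes also answer to factors other than STATs, and the lists were written with earlier results of these data known.

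**Figure D4:**
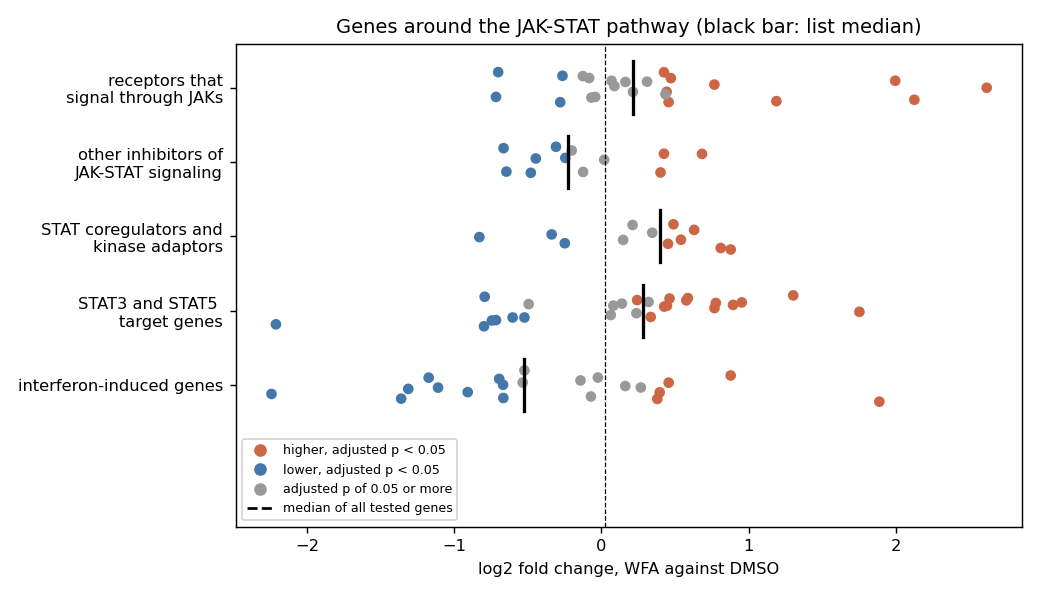
Log2 fold change, WFA against DMSO, of each tested gene of 5 lists around the pathway (horizontal axis), orange where called higher, blue where called lower and grey where not called, with the median of each list as a black bar and that of all tested genes, 0.02, as a dashed line. Every list holds genes called in both directions, and the medians run from -0.52 for interferon-induced genes to 0.40 for coregulators and adaptors.

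Summed over their members, the 3 kinases had 345 to 366 CPM with DMSO and 313 to 330 CPM with WFA, and the groups did not overlap. The 3 STATs had 238 to 258 CPM and 248 to 269 CPM, which overlapped. The 3 inhibitors had 9.08 to 10.8 CPM with DMSO and 16.6 to 22.7 CPM with WFA, without overlap, and SOCS3 made up the larger part of the difference. Over the 6 libraries the profile of SOCS3 was most like those of LOC101929709, HIST1H2AC and TNFRSF12A, a receptor of the TNF family. The Euclidean distances between centred log2 CPM profiles were 0.29, 0.30 and 0.34. All 3 genes were low with DMSO, between 0.422 and 1.83 CPM, and had log2 fold changes of 1.99, 2.26 and 2.13. They were picked by this distance over the same libraries, so fold changes near that of SOCS3 follow from the choice.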

How the data were processed

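RNA of THP1 cells was sequenced in 6 libraries. Per the labels, the authors used bcl2fastq 2.19, Trimmomatic, Bowtie2, Picard and featureCounts on build hg38, and deposited whole-number counts per gene. The annotation and the treatment of multiply mapped reads are not given in the sources used here. The authors also deposited a scaled score per library and their own comparison (log2 fold changes and p-values), neither of which was used. Genes were tested with edgeR 4.0.16 in R 4.3.3, with TMM scaling, filterByExpr (minimum count 10), the quasi-likelihood test and Benjamini-Hochberg adjustment over all 12854 tested genes, with a threshold of 0.05. The code was tested on simulated data. There DESeq2 with the block missed the planned recovery of 2-fold changes, and the criterion was then limited to genes with higher counts. Recovery among genes with few counts was thus not part of the final criterion. Alternatives used the replicate block, DESeq2 1.42.0, limma-voom 3.58.1, other scalings and filters, a robust fit and leaving out each library. DESeq2 with the block was added after seeing the data.

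The members and lists were chosen with earlier results of these data known. A gene that the lists held is not reported here, and the lists are given without it. Named were the members, the other family genes, and from each list genes that changed over 2-fold plus up to 2 with the smallest p in each direction, and the 3 genes most like a member that changed over 2-fold. The ligands, the receptors listed at 0 and the cell type markers named besides were chosen after their values were seen.

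Same-numbered libraries share a date code in the labels and stand for the same experiment. Their deviations from the group means correlated at 0.217, 0.333 and 0.245, against -0.256 to 0.00369 for different numbers, so the numbers pair the libraries. Within a group, chi-square values per gene of 5.98 to 11.1 put the libraries outside sampling noise. Exon lengths and positions came from GENCODE 29.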

Additional observations from a re-analysis of the deposited data

How the results depend on the processing

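JAK2, STAT5A, STAT5B and SOCS3 kept their direction and their call in all 16 alternatives. JAK1 was never called, and its sign turned with total counts in place of TMM (-0.0208), a scaling that moved the median of all genes from 0.02 to -0.06. STAT3 passed the threshold with the replicate block (-0.21), with total counts (-0.30) and with DESeq2 and the block (-0.23), and CISH with the block (0.36). Without single libraries, STAT3 lay between -0.26 and -0.15 and CISH between 0.25 and 0.53, with a call for STAT3 without WFA replicate 3 and for CISH without WFA replicate 1. The number of members called lower was 2 with the block, with total counts and with DESeq2 and the block, and between 1 and 2 without single libraries. SOCS4 turned to -0.0655 with total counts and to -0.0116, -0.0322 and -0.0660 without DMSO replicate 1, DMSO replicate 2 and WFA replicate 1, within a range of -0.0660 to 0.0921 without single libraries. SOCS5 lay between -0.132 and 0.0327, the latter without WFA replicate 3. The interferon-induced genes called higher numbered 3, in place of 5, with total counts and with DESeq2 and the block. That number was also 3 without DMSO replicate 2 or 3 and without WFA replicate 1 or 3. Receptors called lower numbered 2, in place of 4, without DMSO replicate 1 and without WFA replicate 3. With no filter or without single libraries, at most 1 ligand was called higher and at most 2 lower. For these changes the cause was not tested. The difference in the STAT5A share was 1.37 percentage points with all libraries, and 0.484 to 2.16 without single libraries. The replicate block changed the calls of STAT3, CISH and STAT4 and of no other JAK, STAT or SOCS gene. It left 2 residual degrees of freedom in place of 4. The prior degrees of freedom weight a variance shared across genes. Their median was 10.8 without the block and infinite with it, so at that median the block fit used no gene-specific variance. The block fit called 59.0% of all tested genes, against 50.5% without the block.

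With 3 libraries per group, the smallest p of the exact test is 0.1. SOCS1 and JAK3 had too few counts to show a change, and SOCS3 rested on 21 to 35 counts per DMSO library. Which reads STAT5A and STAT5B shared was not examined here.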
